A study of Homo sapiens with 4 samples.

Results

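The myosin genes of T24 cells, an established line of invasive bladder carcinoma, were examined in the RNA-seq libraries of the series. Members were the rows of the deposited table whose gene name is MYH, MYL or MYO followed by a number and at most 1 letter. This rule, which uses names only, selected 52 of 47432 genes, 8 of them heavy or light chains of non-muscle myosin II and 44 of other myosins. Isorhapontigenin (ISO), a plant stilbene related to resveratrol, was given at 20 µM for 24 h in 2 libraries (ISO a and ISO b), and 2 libraries came from control cells (control a and control b), which the labels call untreated and for which the study's methods name the solvent DMSO. Levels are given as RPKM, reads scaled to the length of a gene's exons and to the mapped reads of the library, after trimmed-mean (TMM) scaling of the 4 libraries. Whether both libraries of a group are separate cultures is not given in the sources used here, so the p-values rest on differences among 4 libraries that could be technical repeats.

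Myosins are motors that move on actin filaments. Class II myosins are hexamers of paired heavy chains, essential light chains and regulatory light chains. The non-muscle forms assemble into short bipolar filaments that pull on stress fibers, focal adhesions and the cytokinetic ring of nearly all cells, and phosphorylation of the regulatory light chain switches them on. The muscle forms build the sarcomere or the contractile apparatus of smooth muscle. The unconventional classes do not form bipolar filaments. They link membranes and cargo to actin, as class I does at the plasma membrane, class V and class VI on vesicles and class X in filopodia.

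The regulatory light chains of non-muscle myosin II are encoded by near copies, which bears on how reads can be told apart. The first bases of their coding sequences are shown for that reason, from the Ensembl canonical transcripts of GENCODE v44. In MYL12A and MYL9, capitals mark bases that differ from MYL12B, and in MYL12B they mark the 3 bases that MYL12A lacks.
MYL12A: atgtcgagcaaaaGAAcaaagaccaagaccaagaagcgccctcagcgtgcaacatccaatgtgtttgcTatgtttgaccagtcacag
MYL12B: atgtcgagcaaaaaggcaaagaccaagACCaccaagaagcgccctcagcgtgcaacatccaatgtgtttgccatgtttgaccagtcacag
MYL9: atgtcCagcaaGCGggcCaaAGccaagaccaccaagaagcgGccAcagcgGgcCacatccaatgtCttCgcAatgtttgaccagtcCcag
The coding sequence of MYL12A differed from that of MYL12B at 22 of 516 aligned bases (95.7% identity), and that of MYL9 at 101 of 519 (80.5%). Over the canonical transcripts, 8.36% of the 50-base stretches of MYL12A also occur in a transcript of MYL12B, and 6.82% of those of MYL12B in one of MYL12A, whereas MYL9 shared none with another member. How reads that fit both copies were assigned is not given in the sources used here, so levels of MYL12A and MYL12B are uncertain. Exact matches of 50 bases do not measure by how much, as the study aligned paired reads and allowed mismatches. The genes are neighbors on chromosome 18 on the plus strand (hg38), MYL12A at 3247481 to 3256236 and MYL12B at 3261479 to 3278461, 5242 bases apart.

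Reads recovered from the RPKM and the exon lengths of GENCODE v44 summed to 39028228 and 32349827 on genes in ISO a and ISO b and to 42879427 and 40396212 in control a and control b. Of the epithelial and urothelial markers, 6 of 12 lay above 1 RPKM in all 4 libraries, among them KRT7 at 301 to 381 RPKM. CDH1, which encodes E-cadherin, was at 0 to 0.0047 RPKM, and the basal keratin KRT5 had 0 reads. The summed level of these markers was 707 to 726 RPKM in the ISO libraries and 856 to 874 RPKM in the control libraries. Most of this sum came from the keratins KRT7, KRT8, KRT18 and KRT19, each lower in both ISO libraries, so it does not describe the markers as a set. GATA3 was higher in ISO (6.42 and 7.45 RPKM) than in control (4.70 and 5.04 RPKM). EPCAM overlapped between the groups (1.17 and 1.26 RPKM in ISO, 1.17 and 1.29 RPKM in control). The part of these markers in the results on myosins was not tested. Of 8 skeletal muscle markers only TNNT1 was above 1 RPKM, and 3 had 0 reads, MYOD1 and MYOG among them. The cardiac and smooth muscle markers reached at most 0.138 RPKM in any library. Of 4 leukocyte markers 3 had 0 reads and CD14 was at 3.03 to 3.57 RPKM, and of 5 fibroblast markers 2 had 0 reads and none exceeded 0.961 RPKM.

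Heavy and light chains counted together, the 8 members of non-muscle myosin II summed to 647 and 624 RPKM in the ISO libraries and 751 and 732 RPKM in the control libraries. The 25 unconventional myosins summed to 116 and 120 RPKM in ISO and 121 in each control library, and the 19 muscle myosins of class II to 0.739 and 0.632 RPKM in ISO and 0.513 and 0.543 RPKM in control. MYL5 alone held 0.421 and 0.380 RPKM of this muscle sum in ISO and 0.373 and 0.341 RPKM in control. None of the other muscle members exceeded 0.0815 RPKM in any library, so the rest of the sum lies near the floor. The heavy chains of non-muscle myosin II alone summed to 87.0 and 98.5 RPKM in ISO and 118 and 121 RPKM in control, which was not above the sum of the unconventional myosins in any library. Of the 52 members, 22 reached the mean RPKM of 0.1 that the test required. They were 7 members of non-muscle myosin II, 14 unconventional myosins and MYL5. The level of 21 of them in each library is shown in the plot of levels by gene.

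**Figure D1:**
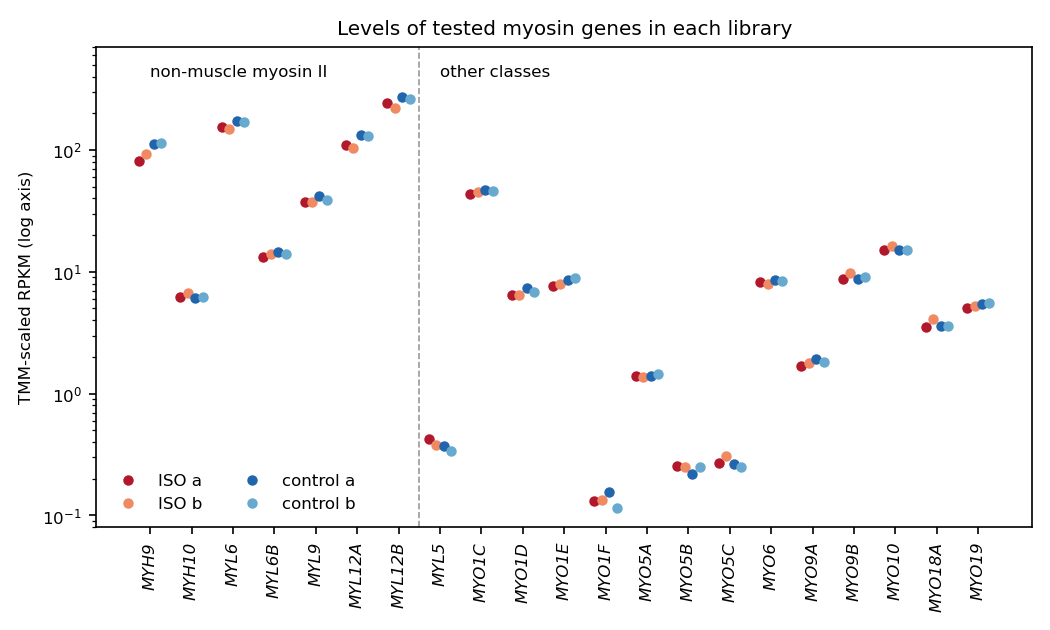
TMM-scaled RPKM (log axis) of 21 of the 22 tested myosin genes in ISO a, ISO b, control a and control b, 1 point per library. Levels run from about 0.12 RPKM for MYO1F to 271 RPKM for MYL12B. Both ISO libraries lay below both control libraries in 11 of the 22 tested genes, MYH9, MYL6 and MYL12A among them, and above in 4. Over all tested genes the shares were 29.2% below and 28.0% above.

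Among these 22 genes, 3 fell in ISO and 0 rose at an adjusted p under 0.05 from limma, and all 3 that fell belong to non-muscle myosin II (3 of 7 tested). None of the 15 tested genes of the other classes passed. Among these, MYL5, MYO1F, MYO5B and MYO5C lay at only 0.115 to 0.421 RPKM. Their log2 fold changes had standard errors of 0.15 to 0.25, against 0.041 to 0.062 in the tested non-muscle members, so a change was less well resolved. Over all 15304 tested genes 9.85% passed, 5.87% as lower and 3.98% as higher in ISO. The median log2 fold change was -0.18 over the 7 tested members of non-muscle myosin II and -0.0071 over the 15 others, against -0.0021 over all tested genes. In 5 of the 7 both ISO libraries lay below both control libraries and in 0 above, and in the 15 others this held for 6 below and 4 above. Over all tested genes the shares were 29.2% below and 28.0% above, or 57.2% with no overlap between the groups. With RPKM as deposited and no further scaling, 2 members fell and 0 rose, against 4.12% and 9.30% of all tested genes. Among genes that averaged 1 RPKM or more, 5 of the 18 members then tested fell and 0 rose, against 11.4% and 8.66% of all genes then tested. From recovered reads limma-voom tested 25 members and called 5 lower and 0 higher, against 10.6% and 7.78% of the genes it tested. The class I gene MYO1E was among the 5 in both fits, so there the calls were not confined to non-muscle myosin II. The contrast between non-muscle myosin II and the other classes is a description of these counts and medians and was not tested.

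**Figure D2:**
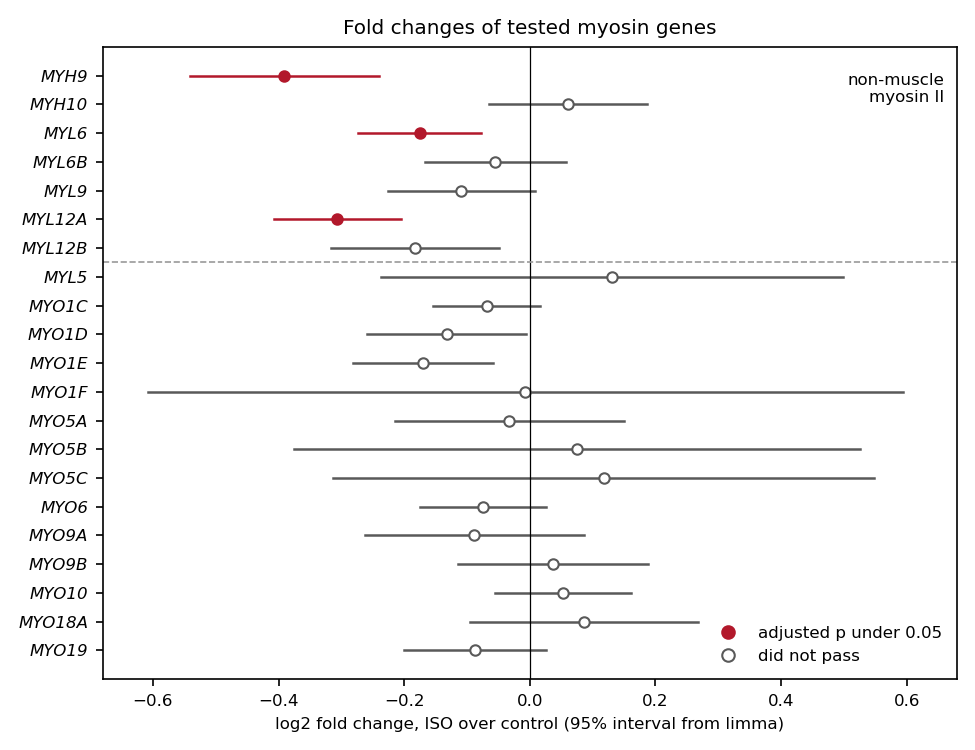
Log2 fold change of ISO over control with its 95% interval from limma for 21 of the 22 tested myosin genes, non-muscle myosin II above the dashed line. Filled points passed at an adjusted p under 0.05 (MYH9, MYL6 and MYL12A), and open points did not.

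MYH9 encodes the heavy chain of non-muscle myosin IIA, the main contractile isoform of many non-muscle cells. It was at 80.7 and 91.8 RPKM in ISO a and ISO b and at 112 and 114 RPKM in control a and control b. Both ISO libraries lay below both control libraries, and ISO a lay below ISO b by more than the control libraries differed. The log2 fold change was -0.39 (standard error 0.062, 95% interval -0.54 to -0.24, adjusted p = 0.016 from limma). The gene spans 36281280 to 36388010 on the minus strand of chromosome 22 (hg38). It carried 56982 and 54563 recovered reads in ISO and 82864 and 80991 in control.

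MYH10, the heavy chain of non-muscle myosin IIB, was at 6.23 and 6.72 RPKM in the ISO libraries and 6.15 and 6.26 RPKM in the control libraries. The groups overlapped, and the gene did not pass (log2 fold change 0.060, 95% interval -0.066 to 0.19, adjusted p = 0.52 from limma). MYH14, the heavy chain of IIC, had 0 reads in all 4 libraries, which allows up to 3 reads, or 0.0064 to 0.0085 RPKM, in each, a limit that covers counting error only.

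As shares of a library do not change with scaling, the heavy chains were also compared within each library. MYH9 made up 92.8% and 93.2% of the summed heavy chain RPKM in ISO a and ISO b and 94.8% in each control library. MYH10 made up 7.17% and 6.82% in ISO and 5.23% and 5.19% in control. The groups did not overlap, and the mean share of MYH10 was 6.99% ± 0.247 (SD, n = 2) in ISO and 5.21% ± 0.0269 (SD, n = 2) in control. As MYH14 had 0 reads, the share of MYH10 is what MYH9 leaves and is no separate result. The difference in shares was not tested. The RPKM divide by all exons annotated to a gene, 17034 bases for MYH9 and 32700 for MYH10, whereas the canonical transcripts have 7451 and 7707 bases. Per kilobase of canonical transcript, chosen after the data were seen, MYH10 had 12.5% and 12.0% in the ISO libraries and 9.28% and 9.22% in the control libraries.

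MYL12A and MYL12B encode the regulatory light chains that bind the neck of the non-muscle heavy chains. MYL12A was at 110 and 104 RPKM in ISO a and ISO b and at 133 and 131 RPKM in control a and control b, with no overlap between the groups. It fell, with a log2 fold change of -0.31 (95% interval -0.41 to -0.21, adjusted p = 0.010 from limma). MYL12B was at 245 and 223 RPKM in ISO and 271 and 260 RPKM in control. Its ISO libraries also lay below the control libraries, but it did not pass (log2 fold change -0.18, 95% interval -0.32 to -0.048, adjusted p = 0.094 from limma). A mean RPKM of at least 1 in place of 0.1 gave an adjusted p of 0.038 for MYL12B and limma-voom on the recovered reads 0.0085, and its adjusted p ranged from 0.0085 to 0.298 over all alternatives. MYL9, a regulatory light chain of smooth muscle and non-muscle cells, was at 37.3 and 37.6 RPKM in ISO and 42.2 and 38.6 RPKM in control (log2 fold change -0.11, 95% interval -0.23 to 0.0082, adjusted p = 0.21 from limma). Its level in control b was nearer to the ISO libraries than to control a.

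Within the regulatory light chains, MYL12A made up 28.0% and 28.5% in ISO and 29.9% and 30.5% in control, and the groups did not overlap. MYL12B made up 62.5% and 61.2% in ISO and 60.7% and 60.5% in control, and MYL9 9.50% and 10.3% in ISO and 9.453% and 8.998% in control. The order of MYL12A and MYL12B depended on the length used. Per kilobase of canonical transcript (958 bases for MYL12A and 1163 for MYL12B), MYL12A made up 48.7% and 49.7% of their sum in the ISO libraries and 51.1% and 51.6% in the control libraries, so that neither copy was clearly the more abundant.

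**Figure D3:**
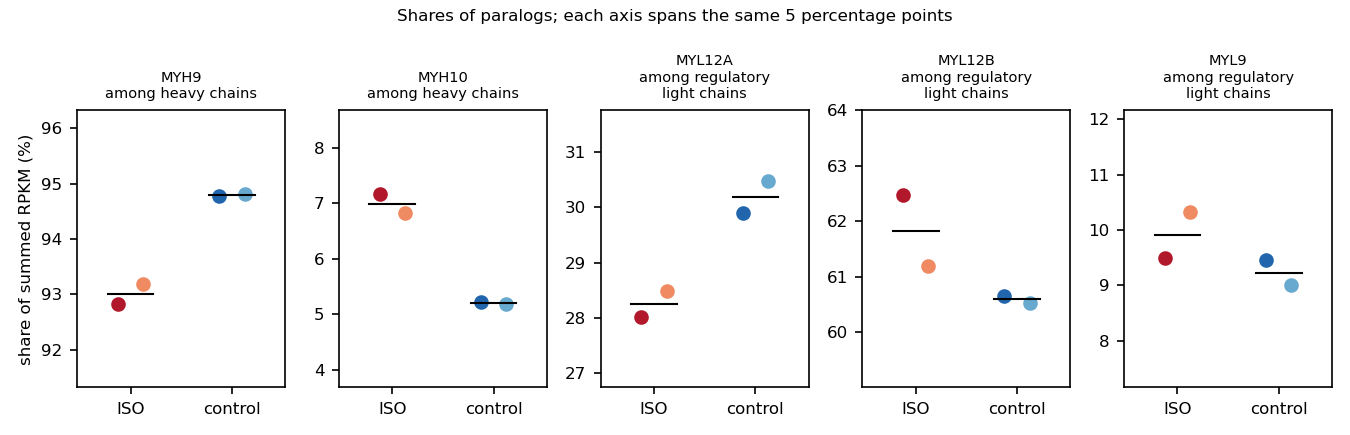
Share of each paralog in the summed RPKM of the non-muscle heavy chains or of the regulatory light chains (percent), 1 point per library with the group mean as a line, ISO left of control. Each axis spans 5 percentage points and does not start at 0. MYH9 and MYL12A had lower shares in both ISO libraries than in either control library.

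MYL6 encodes the essential light chain that is found in smooth muscle and non-muscle myosin II. It was at 154 and 147 RPKM in ISO a and ISO b and at 172 and 168 RPKM in control a and control b, with no overlap. It fell, with a log2 fold change of -0.18 (95% interval -0.27 to -0.078, adjusted p = 0.046 from limma), close to the threshold. The call ended with RPKM as deposited (adjusted p = 0.065 from limma) and when any 1 of ISO a, ISO b, control a or control b was left out (adjusted p = 0.067 to 0.19 from limma). MYL6B, a related essential light chain, was at 13.2 and 14.1 RPKM in ISO and 14.4 and 14.0 RPKM in control and did not pass (log2 fold change -0.055, 95% interval -0.17 to 0.058, adjusted p = 0.51 from limma). The genes overlap on chromosome 12 (hg38), MYL6B at 56152256 to 56159647 and MYL6 at 56158346 to 56163496, both on the plus strand, and 89 exon bases are common to both. A further 719 exon bases of MYL6, 16.3% of them all, overlap SMARCC2 on the other strand. As deposited, the level of SMARCC2 was 8.70 to 9.71 RPKM, well below the 152 to 168 RPKM of MYL6. As the sources used here do not say that strand was used in counting, reads on these bases cannot be told apart.

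As a whole, the non-muscle heavy chains summed to 87.0 and 98.5 RPKM in ISO and 118 and 121 RPKM in control, the regulatory light chains to 392 and 364 RPKM in ISO and 447 and 429 RPKM in control, and the essential light chains to 167 and 161 RPKM in ISO and 187 and 182 RPKM in control. For each of these sums both ISO libraries lay below both control libraries, a pattern that 29.2% of all tested genes showed. MYH9 made up 92.8% to 94.8% of the heavy chain sum and MYL6 91.3% to 92.3% of the essential light chain sum. Those sums thus largely repeat the values of MYH9 and MYL6.

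The promoters of the 3 genes that fell are printed because these genes passed the threshold. That of MYO1E is printed because it alone held a CArG box, the site bound by serum response factor (SRF). The printed promoters are the RefSeq windows from 250 bases before to 50 bases after a gene start (GRCh38.p14). Capitals mark the letters CATTCC on either strand, the core of the site bound by TEAD factors, or the CArG box.
MYH9, chr22:36387918-36388217, minus strand: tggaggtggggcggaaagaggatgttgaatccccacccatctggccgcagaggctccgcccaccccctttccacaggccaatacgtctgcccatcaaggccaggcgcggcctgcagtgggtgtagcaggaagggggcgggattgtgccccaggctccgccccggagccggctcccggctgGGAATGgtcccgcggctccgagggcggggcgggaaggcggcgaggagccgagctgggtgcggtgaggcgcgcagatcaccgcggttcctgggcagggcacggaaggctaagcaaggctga
MYL12A, chr18:3247232-3247531, plus strand: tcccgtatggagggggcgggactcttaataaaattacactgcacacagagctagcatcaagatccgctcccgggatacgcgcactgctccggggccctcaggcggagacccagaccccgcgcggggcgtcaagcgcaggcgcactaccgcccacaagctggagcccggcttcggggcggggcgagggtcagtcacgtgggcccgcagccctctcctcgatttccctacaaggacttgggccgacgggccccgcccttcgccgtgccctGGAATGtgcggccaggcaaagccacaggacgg
MYL6, chr12:56158109-56158408, plus strand: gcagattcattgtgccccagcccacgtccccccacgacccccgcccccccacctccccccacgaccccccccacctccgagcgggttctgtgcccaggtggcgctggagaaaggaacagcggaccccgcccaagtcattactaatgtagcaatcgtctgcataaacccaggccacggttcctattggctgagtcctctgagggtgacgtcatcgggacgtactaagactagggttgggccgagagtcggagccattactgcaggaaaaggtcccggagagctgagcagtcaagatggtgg
MYO1E, chr15:59372822-59373121, minus strand: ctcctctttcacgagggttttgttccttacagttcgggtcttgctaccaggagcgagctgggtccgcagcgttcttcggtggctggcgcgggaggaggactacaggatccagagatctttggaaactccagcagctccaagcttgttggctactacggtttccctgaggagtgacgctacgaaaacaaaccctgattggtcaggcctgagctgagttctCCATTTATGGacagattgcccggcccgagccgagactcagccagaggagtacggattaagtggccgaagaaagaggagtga
RefSeq windows were found for 20 of the 22 tested members, 29 windows in all. CATTCC occurred in 3 of the 29, 1 each of MYH9, MYH10 and MYL12A, against 14.0% of 35116 windows of all genes. The CArG box, searched by its consensus on both strands, occurred in 1 of the 29 against 1.29% of all windows. In MYH9 the match began 70 bases before the start, and in MYL12A 19 bases into the transcript, in 1 of its 3 windows. These are matches of letters in short windows and do not show binding.

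Class I myosins are single-headed motors that tether membranes to actin. Of 8 members 5 were tested and 0 passed. MYO1C, the most abundant, was at 43.9 and 44.9 RPKM in ISO and 47.2 and 46.0 RPKM in control (log2 fold change -0.069, adjusted p = 0.27 from limma). MYO1E, a long-tailed class I myosin, was at 7.58 and 7.93 RPKM in ISO a and ISO b and at 8.56 and 8.89 RPKM in control a and control b. Its groups did not overlap, and it came nearest to the threshold among the unconventional myosins (log2 fold change -0.17, 95% interval -0.28 to -0.058, adjusted p = 0.072 from limma). It passed with limma-voom (adjusted p = 0.012) and with a mean RPKM of at least 1 (adjusted p = 0.036), and its adjusted p was at most 0.254 over all alternatives. MYO1D was at 6.43 and 6.40 RPKM in ISO and 7.33 and 6.77 RPKM in control (adjusted p = 0.17 from limma). MYO1F was at 0.133 and 0.134 RPKM in ISO and 0.155 and 0.115 RPKM in control, a level too low to resolve a change (95% interval -0.61 to 0.59 on the log2 scale).

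Among the cargo motors, MYO5A, which carries vesicles and melanosomes, was at 1.40 and 1.38 RPKM in ISO and 1.40 and 1.45 RPKM in control. MYO5B and MYO5C, class V motors of epithelial cells, lay between 0.220 and 0.308 RPKM in the 4 libraries. MYO6, which moves toward the minus end of actin filaments, was at 8.17 and 7.95 RPKM in ISO and 8.52 and 8.46 RPKM in control (log2 fold change -0.075, 95% interval -0.17 to 0.025, adjusted p = 0.31 from limma). None of the class V genes passed either (adjusted p = 0.73 to 0.84 from limma). For MYO5A the 95% interval was -0.22 to 0.15 on the log2 scale, and for MYO5B and MYO5C it reached 0.53 and 0.55.

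The remaining classes did not pass. MYO10, the motor of filopodia, was at 15.1 and 16.2 RPKM in ISO and 15.1 in each control library (log2 fold change 0.052, 95% interval -0.056 to 0.16, adjusted p = 0.51 from limma). MYO9A and MYO9B, the class IX myosins, did not differ past the threshold (log2 fold change -0.088 with adjusted p = 0.49 for MYO9A, and 0.037 with adjusted p = 0.76 for MYO9B, from limma). MYO9B was at 8.65 and 9.71 RPKM in ISO and 8.74 and 9.12 RPKM in control, and MYO9A at 1.70 and 1.79 RPKM in ISO and 1.92 and 1.81 RPKM in control. MYO18A, a myosin-like protein of the Golgi, was at 3.54 and 4.09 RPKM in ISO and 3.56 and 3.60 RPKM in control (log2 fold change 0.086, adjusted p = 0.52 from limma). Its value in ISO b alone stood above the other 3 libraries. MYO19, a mitochondrial motor, was at 5.07 and 5.22 RPKM in ISO and 5.42 and 5.53 RPKM in control (log2 fold change -0.088, 95% interval -0.20 to 0.025, adjusted p = 0.29 from limma). MYL5, a regulatory-type light chain, was the only class II member outside non-muscle myosin II to be tested, at 0.421 and 0.380 RPKM in ISO and 0.373 and 0.341 RPKM in control (adjusted p = 0.64 from limma). Of its exon bases 13.3% overlap ATP5ME on the other strand, which was at 31.2 to 33.4 RPKM as deposited. If strand was not used in counting, reads on these bases alone cannot be told apart from those of ATP5ME.

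The other 30 members did not reach the mean of 0.1 RPKM, and none exceeded 0.0815 RPKM in any library. Of these, 12 had 0 reads in all 4 libraries, namely MYH1, MYH2, MYH4, MYH6, MYH7, MYH13, MYH14, MYL1, MYL10, MYO1G, MYO3A and MYO3B. A further 14 had 1 to 10 reads over the 4 libraries together, namely MYH7B, MYH8, MYL2, MYL3, MYL4, MYL7, MYL11, MYO1A, MYO1H, MYO7A, MYO7B, MYO15A, MYO16 and MYO18B. More than 10 reads were recovered for MYH11, the smooth muscle heavy chain (23 and 26 in ISO, 23 and 19 in control), MYH3, the embryonic skeletal heavy chain (14 and 19 in ISO, 9 and 11 in control), MYH15 (9 and 9 in ISO, 9 and 14 in control) and MYO15B (4 and 8 in ISO, 3 and 6 in control). The skeletal heavy chain genes MYH1, MYH2, MYH3, MYH4, MYH8 and MYH13 lie together on chromosome 17 between 10300865 and 10657309 (hg38), and MYH3 and MYH8 were the only ones of them with a read.

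Genes that switch non-muscle myosin II on or off, fold it, share its filaments or link unconventional myosins to cargo were read from a list of 59, of which 53 were tested. At an adjusted p under 0.05 from limma, 9 of the 53 fell and 1 rose. Over all tested genes 5.87% fell and 3.98% rose. The median log2 fold change was -0.071 over the list and -0.0021 over all tested genes. As the list was chosen with earlier results of these data known, its counts and median are a description and were not tested. The gene that rose and 1 of the 9 that fell are not reported here, so the called genes described next are all lower in ISO. With RPKM as deposited 8 fell and 4 rose. Without 1 of the 4 libraries, 3 to 6 fell and 1 to 2 rose, with 3 falling without ISO a or ISO b and 4 without control a.

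ARHGEF2, a guanine nucleotide exchange factor bound to microtubules, was at 9.45 and 9.69 RPKM in ISO and 12.9 and 12.3 RPKM in control and was lower in ISO by limma (log2 fold change -0.39, 95% interval -0.49 to -0.28, adjusted p = 0.0057). ARHGEF2 passed also in the 4 fits that omit a library (adjusted p at most 0.038 from limma).

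The list holds 11 light chain kinases, of which 6 were tested. MYLK, the smooth and non-muscle light chain kinase, was not tested, at 0.0911 and 0.0927 RPKM in ISO and 0.0887 and 0.0846 RPKM in control. Of the 6 tested kinases only DAPK3 fell, and of 6 tested phosphatase subunits and inhibitors only PPP1R14B, an inhibitor, fell (log2 fold changes -0.18 and -0.19, adjusted p = 0.031 and 0.033 from limma). Among proteins that coat actin filaments and gate myosin, TPM4 was at 37.6 and 36.4 RPKM in ISO and 47.8 and 47.9 RPKM in control (log2 fold change -0.37, adjusted p = 0.0037 from limma). CALD1, which encodes caldesmon, an inhibitor of myosin binding, fell too (log2 fold change -0.35, adjusted p = 0.014 from limma), as did TPM1 (log2 fold change -0.23, adjusted p = 0.026 from limma), while TPM2 and TPM3 did not pass (adjusted p = 0.096 and 0.072 from limma). DAPK3, PPP1R14B, TPM1 and the genes of this list named as not passing or not tested, other than those of SRF, were chosen after their values were seen. TPM4 passed with any 1 library left out. The call of CALD1 did not hold with either ISO library omitted (adjusted p = 0.064 and 0.068 from limma), that of TPM1 with control a or either ISO library omitted (0.061 to 0.107), and those of DAPK3 and PPP1R14B in all 4 fits that omit a library (0.057 to 0.133 over both genes). DAPK3 also did not pass with RPKM as deposited (adjusted p = 0.075 from limma) or with the library letter as a block (0.058).

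GIPC1 and OPTN are adaptors that bind the class VI motor. GIPC1 was at 24.1 and 23.8 RPKM in ISO and 28.5 and 27.6 RPKM in control and fell (log2 fold change -0.22, adjusted p = 0.017 from limma). OPTN was at 23.7 and 23.2 RPKM in ISO and 26.8 and 27.3 RPKM in control and fell (log2 fold change -0.20, adjusted p = 0.020 from limma). MYO6 itself did not pass. The call of GIPC1 was lost in the fits that omit control a, ISO a or ISO b (adjusted p = 0.061 to 0.073 from limma), and that of OPTN in all 4 such fits (0.053 to 0.083). SRF was at 9.78 and 10.4 RPKM in ISO and 10.8 and 10.9 RPKM in control and did not pass (adjusted p = 0.21 from limma). Neither did its actin-regulated coactivators MRTFA (log2 fold change 0.042, adjusted p = 0.70 from limma) and MRTFB (log2 fold change 0.20, adjusted p = 0.093 from limma). MRTFB passed as higher in ISO with RPKM as deposited (adjusted p = 0.046 from limma) and with limma-voom (0.0082).

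**Figure D4:**
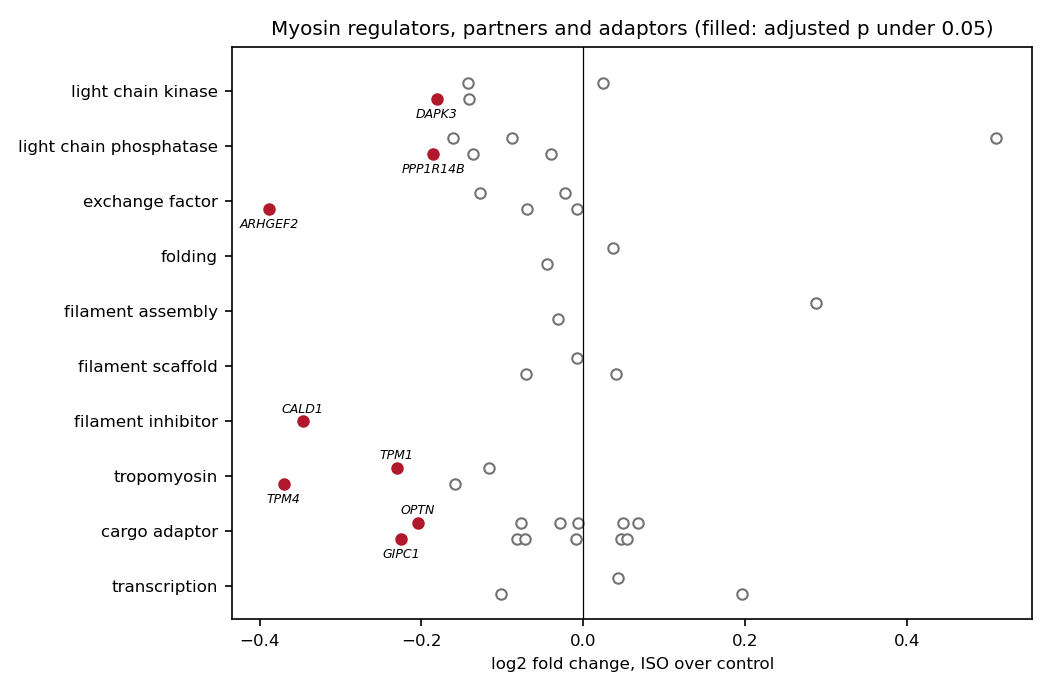
Log2 fold change of ISO over control for 42 of the 53 tested regulators, partners and adaptors of myosins, by role, 1 point per gene. Filled, named points passed at an adjusted p under 0.05 (8 lower in ISO), and open points did not.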

How the data were processed

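The authors trimmed the reads, aligned them to hg38 in Biomedical Genomics Workbench, summed reads on exons per gene and deposited RPKM, with the mean of each group beside them. Both means were equal to those of the library columns and were not used. RPKM times the summed exon lengths of GENCODE v44 gave whole reads, within 0.05, for 98.8% of the values above 0 in each library, with 47416 of 47432 gene IDs matched. At this depth 3 reads on 1 kilobase correspond to 0.0670 to 0.0885 RPKM.

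TMM scaling is named in the study's methods but not contained in the deposited RPKM, so factors were computed on them (trimming 30% of log ratios and 5% of levels), 1.01 and 1.03 for ISO and 0.974 and 0.983 for control. Limma 3.58.1 in R 4.3.3, with a variance trend, was fitted to log2(RPKM + 0.1) over 15304 genes that averaged 0.1 RPKM or more. Adjusted p-values followed Benjamini and Hochberg, and 0.05 was the threshold. Fold changes on this scale understate those of low genes. The fit was tested on simulated data.

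The members, the classes and the list of 59 regulators were chosen with earlier results of these data known. All tested members are named, members that were not tested by their reads, and of the regulators those that passed, or the 6 with the smallest p where more than 6 passed in a direction, with SRF, MRTFA and MRTFB. The rule has exceptions, since some genes of either list, and what depends on them, are not reported here; they remain in the counts and medians. The alternatives were RPKM as deposited, median-of-ratios scaling, pseudocounts of 1 and 0.01, a fit of all genes with any signal, a minimum of 1 RPKM on average, limma-voom with TMM on reads recovered from RPKM, a block for the library letter, and leaving out each of the 4 libraries. Figures were drawn with matplotlib 3.10.9 in Python 3.11.15.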

Additional observations from a re-analysis of the deposited data

How the results depend on the processing

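MYH9 and MYL12A kept their lower call under each alternative run except no filter on low values, where the adjusted p was 0.093 and 0.065 from limma and 0 members were called, against 3 with the filter. That fit tested 24052 genes, and over all genes it called 165 lower and 58 higher, with 4420 at an unadjusted p under 0.05, and 3 regulators lower. With a mean RPKM of at least 1, 5 members were lower (MYL12B and MYO1E in addition), 930 of all genes and 2 regulators were higher. Limma-voom on the recovered reads also called 5 members lower, with 1594 of all genes lower and 1171 higher, and 17 regulators lower and 2 higher. With RPKM as deposited, 1424 genes and 4 regulators were higher, and the higher share of all calls was 69.3% against 40.4% with TMM. The cause of these differences was not tested. Per kilobase of canonical transcript, added after the data were seen, the share of MYH9 among the heavy chains fell by 2.99 percentage points, against 1.79 per kilobase of all exons.

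Leaving out 1 library at a time gave 352 to 547 genes lower and 150 to 417 higher, 2 members lower, and 3 to 6 regulators lower and 1 to 2 higher. The lone library of its group is then assumed to vary like the other group. Directions that turned were those of genes that had not passed. They were MYL6B (0.0077), MYO1F (0.029) and MYO5A (0.026) with RPKM as deposited, MYO1F without control a (0.12), and MYO9B (-0.046), MYO18A (-0.015) and MRTFA (-0.029) without ISO b, all as log2 fold changes. Over the left-out libraries MYO18A ranged from -0.015 to 0.187, and MRTFA from -0.029 to 0.113.

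The letters a and b do not pair the libraries in any source used here, and the differences between a and b did not go together in the groups (Pearson r = -0.13 across 6208 genes). With the letter as a replicate block 4 members were lower (MYL12B in addition), and 8 regulators were lower and 2 higher. With the letters crossed, added after the data were seen, 982 genes were lower and 743 higher and 2 members lower.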
